A study of Mus musculus with 12 samples.

Results

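The 10 chemokine ligand genes *Ccl1*, *Ccl2*, *Ccl3*, *Ccl4*, *Ccl5*, *Ccl6*, *Ccl9*, *Ccl22*, *Cxcl10* and *Xcl1* were followed across RNA-seq of mouse splenic CD4+ T cells. They are 10 of the 45777 genes in the deposited table and were taken by symbol. All 10 passed the filter on low counts, which 23585 genes passed. The genes were chosen by their measured levels in these same libraries and the differences between the 4 groups. Their levels and differences are therefore given as a description, without a test. Statements that a member did or did not pass a cut-off describe the fit under a setting and are not a test of that gene. Adjusted p-values are printed only for other chemokine ligands and for chemokine receptors. Counts of members past a cut-off stand beside the share of all genes past it, and nothing is read from them.

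CD4+ T cells from the spleens of wild-type Balb/c mice aged 7 weeks were cultured for 3 days with an anti-CD3 antibody, which triggers the T-cell receptor, at 0.5 ug/mL. All 4 groups received anti-CD3: it was given alone (aCD3), with *Lactobacillus acidophilus*, a probiotic bacterium (LA), with FK506 (FK), or with both agents (LAFK). FK506, also called tacrolimus, inhibits calcineurin, the phosphatase that lets NFAT transcription factors enter the nucleus. Each group held 3 libraries, and the labels do not say whether these came from separate animals, so the spread between libraries may be technical. The labels give no amount of either agent for these cultures. They name Balb/c where the study's methods name B6 mice for these cells, so the strain is uncertain. The methods also give an older age than 7 weeks for the mice. For cultured spleen cells they state that the bacteria were inactivated by heat.

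Chemokines are small secreted proteins that guide leukocytes through G-protein-coupled receptors. Activated T cells secrete several of them, among them CCL1, CCL3, CCL4, CCL5 and XCL1, whereas CCL2, CCL6, CCL9 and CXCL10 are made largely by macrophages, dendritic cells and tissue cells, and CCL22 by dendritic cells, B cells and activated T cells. In T cells, NFAT drives many cytokine and chemokine genes after receptor triggering.

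Library totals ranged from 45416397 to 64658165 counts, and the 4 libraries numbered 1 were the deepest, at 63113961 or more. Summed expression of 9 T-cell markers (*Cd3d*, *Cd3e*, *Cd3g*, *Cd4*, *Cd5*, *Lck* and T-cell receptor constant genes) was 2040 to 3930 FPKM, that is fragments normalized to transcript length and to the depth of the library. Expression of 10 B-cell markers summed to 104 to 178 FPKM in aCD3, 84.1 to 175 in LA, 827 to 1710 in FK and 758 to 900 in LAFK. The 12 markers of monocytes, macrophages and neutrophils summed to 7.64 to 15.9 FPKM in aCD3, 5.84 to 13.2 in LA, 10.3 to 25.7 in FK and 63.8 to 96.7 in LAFK. Among these 12, *S100a8* was at 0 in every library, and *Csf1r*, *S100a9* and *Marco* were at 0 in aCD3. The 9 dendritic-cell markers summed to 83.9 to 197 FPKM in aCD3, 92.2 to 109 in LA, 86.9 to 107 in FK and 169 to 268 in LAFK, with *Clec9a*, *Siglech* and *Cd209a* at 0 in aCD3 and LA. Nearly all of that sum was *Ccr7* and *Batf3*, which T cells also express and which went in opposite directions: *Ccr7* was at 87.0 ± 49.9 FPKM in aCD3 and 189 ± 53.7 in LAFK, and *Batf3* at 46.6 ± 15.6 and 3.45 ± 1.25 (SD, n = 3 each). Apart from these, *Flt3* was at 0.174 ± 0.0363 FPKM in aCD3, 0.887 ± 0.573 in FK and 4.55 ± 0.486 in LAFK, whereas *Itgax* was at 0.346 ± 0.101, 1.48 ± 0.498 and 0.707 ± 0.059, highest in FK. The 8 markers of CD8+ T and NK cells, cells that also make *Ccl3*, *Ccl4*, *Ccl5* and *Xcl1*, summed to 7.82 to 11.5 FPKM in aCD3, 7.36 to 12.3 in LA, 9.14 to 18.9 in FK and 12.1 to 22.0 in LAFK. Against aCD3, edgeR called 4 of them higher and 1 (*Prf1*) lower in FK, and 3 higher and 1 (*Prf1*) lower in LAFK, beside 6.44% and 4.12% of all genes tested in FK and 13.8% and 10.8% in LAFK; their part in those chemokine levels was not tested. In bulk RNA, more cells of a type cannot be told apart from more RNA per cell.

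Of the 10 genes, 7 lie on chromosome 11 of the mouse genome (GRCm38.p6; NCBI gene identifiers are given with each position). *Ccl2* (gene 20296, chr11:82035577-82037452) and *Ccl1* (gene 20290, chr11:82176666-82179812) are near each other. *Ccl5* (gene 20304, chr11:83525778-83530518), *Ccl9* (gene 20308, chr11:83572917-83578636), *Ccl6* (gene 20305, chr11:83587886-83593087), *Ccl3* (gene 20302, chr11:83647843-83649378) and *Ccl4* (gene 20303, chr11:83648624-83664683) fall within 139 kb. The annotated spans of *Ccl3*, on the minus strand, and *Ccl4*, on the plus strand, overlap by 755 bases, through a predicted long *Ccl4* transcript. Whether reads were assigned by strand is not given in the sources used here, so how reads in that overlap were shared is uncertain. *Xcl1* (gene 16963, chr1:164931644-164935522), *Cxcl10* (gene 15945, chr5:92346638-92348889) and *Ccl22* (gene 20299, chr8:94745684-94751388) lie elsewhere.

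Promoter sequences from RefSeq (GRCm38.p6, reference strain C57BL/6J) were found for 7 of the 10 genes, all but *Ccl2*, *Ccl4* and *Ccl5*. Windows from 250 bases before to 50 after the annotated start were searched on both strands for the NFAT core GGAAA, the kappaB motif (GGG, any 5 bases, CC), the AP-1 motif TGANTCA and the interferon response motif (GAAA, any 2 bases, GAAA). The NFAT core was found in 5 of the 7 windows and in 61.3% of all 32851 windows, and kappaB in 4 of 7 and in 50.8% of all. The AP-1 motif was found in 2 of 7 and 7.81% of all, and the interferon response motif in 1 of 7 and 3.44% of all. The 5 windows below are printed for *Ccl1* and *Ccl3*, T-cell chemokines with different orders of groups, and for *Ccl6*, *Ccl9* and *Cxcl10*, which were highest in LAFK. Each is the 250 bases before the start, read 5′ to 3′ on the gene's strand, with bases in any of the 4 motifs in capitals.
Ccl1, chr11:82179813-82180062, minus strand: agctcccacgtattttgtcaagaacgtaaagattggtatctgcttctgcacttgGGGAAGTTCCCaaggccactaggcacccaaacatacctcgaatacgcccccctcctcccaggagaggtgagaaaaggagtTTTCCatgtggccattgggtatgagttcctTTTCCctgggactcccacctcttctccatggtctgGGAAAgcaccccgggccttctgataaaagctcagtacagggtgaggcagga
Ccl3, chr11:83649379-83649628, minus strand: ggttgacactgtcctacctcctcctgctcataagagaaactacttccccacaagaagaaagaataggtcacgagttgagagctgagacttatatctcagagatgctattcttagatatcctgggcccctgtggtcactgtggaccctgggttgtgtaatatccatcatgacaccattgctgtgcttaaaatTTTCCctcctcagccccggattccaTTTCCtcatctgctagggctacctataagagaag
Ccl6, chr11:83593088-83593337, minus strand: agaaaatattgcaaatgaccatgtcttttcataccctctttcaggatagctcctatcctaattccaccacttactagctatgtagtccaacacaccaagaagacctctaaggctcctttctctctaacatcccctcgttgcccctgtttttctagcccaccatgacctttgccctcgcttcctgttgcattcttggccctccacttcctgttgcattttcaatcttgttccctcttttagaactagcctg
Ccl9, chr11:83578637-83578886, minus strand: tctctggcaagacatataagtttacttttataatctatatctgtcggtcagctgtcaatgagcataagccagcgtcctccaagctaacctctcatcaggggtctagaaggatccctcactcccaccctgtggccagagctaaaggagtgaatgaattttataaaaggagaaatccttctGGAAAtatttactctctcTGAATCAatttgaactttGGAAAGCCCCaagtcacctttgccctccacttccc
Cxcl10, chr5:92348890-92349139, minus strand: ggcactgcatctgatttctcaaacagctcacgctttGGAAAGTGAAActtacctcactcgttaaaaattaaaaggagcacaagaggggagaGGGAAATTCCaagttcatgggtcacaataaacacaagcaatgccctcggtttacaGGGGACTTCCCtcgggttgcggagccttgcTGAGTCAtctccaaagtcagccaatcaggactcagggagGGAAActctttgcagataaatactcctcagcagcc

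The *Cxcl10* window held all 4 motifs, with 3 NFAT core, 4 kappaB, 1 AP-1 and 1 interferon response match. The kappaB matches fall in 2 stretches, as 2 of them are the same letters read on both strands and 1 more is shifted from these by 1 base. In that window, 1 NFAT core match overlaps the interferon response match and 1 lies inside a kappaB match. The *Ccl9* window held 2 NFAT core matches, 1 of them inside its kappaB match, and 1 AP-1 match, while the window of its neighbor *Ccl6* held none of these letters. The *Ccl1* window held 3 NFAT core matches and 2 overlapping kappaB matches, and the *Ccl3* window held 2 NFAT core matches. A match is a run of letters and not a measured binding site.

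The members differed widely in level. *Ccl22*, *Ccl3* and *Ccl4* together made up 66.8% to 88.7% of the summed FPKM of the 10 genes in each library. The sum itself was 177 to 255 FPKM in aCD3, 259 to 401 in LA, 114 to 126 in FK and 195 to 238 in LAFK, so LA libraries were the highest and FK libraries the lowest, without overlap with any other group. The make-up of the sum also differed. *Ccl3* and *Ccl4* accounted for 40.0% to 62.0% of it in aCD3, 58.2% to 77.5% in LA, 15.7% to 32.8% in FK and 16.0% to 26.7% in LAFK.

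**Figure D1:**
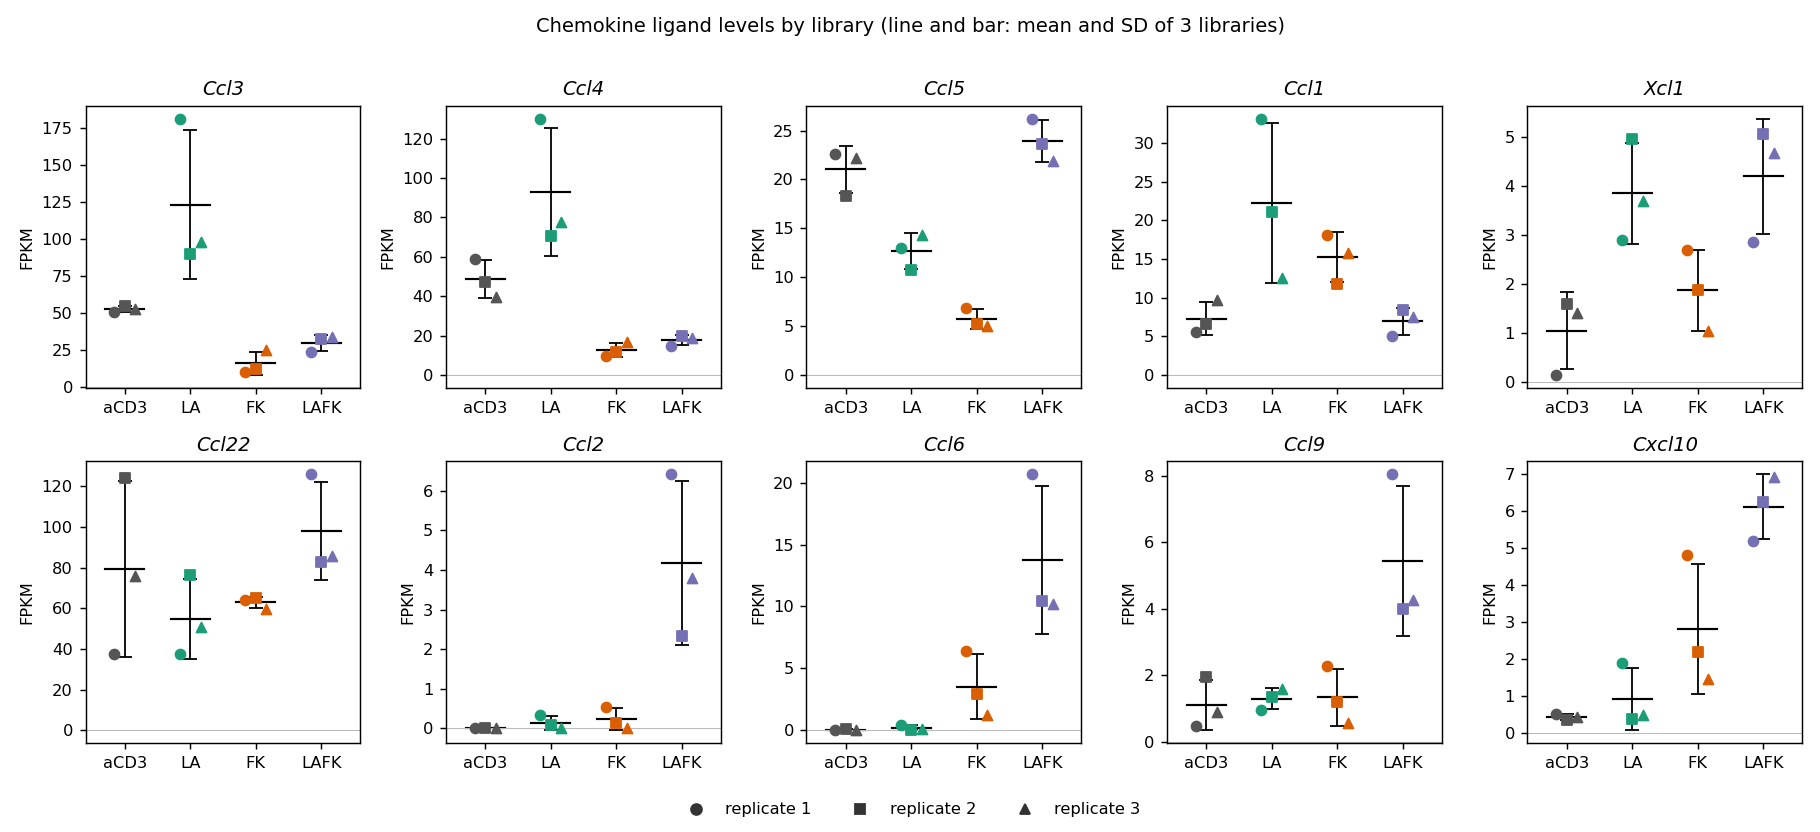
FPKM of each of the 10 chemokine ligands by group. Each point is 1 library with its replicate number as the shape, the horizontal line is the mean of 3 libraries and the bar its SD, and each panel has its own linear axis. *Ccl3* and *Ccl4* are highest in LA and low in both FK506 groups, *Ccl5* is lowest in FK, and *Ccl2*, *Ccl6*, *Ccl9* and *Cxcl10* are highest in LAFK.

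*Ccl3* and *Ccl4* encode inflammatory chemokines that attract T cells, monocytes and NK cells. *Ccl3* was at 50.5, 54.8 and 52.3 FPKM in aCD3, 181, 89.7 and 98.1 in LA, 10.2, 12.3 and 24.8 in FK, and 23.3, 32.1 and 33.3 in LAFK. *Ccl4* was at 58.8, 47.1 and 39.8 FPKM in aCD3, 130, 70.7 and 77.9 in LA, 9.56, 11.5 and 16.6 in FK, and 14.8, 19.8 and 18.9 in LAFK. For both genes every LA library lay above every aCD3 library, and every library with FK506 lay below them. FK and LAFK overlapped. The first LA library was the highest of the 12 for both, at 3.31 times (*Ccl3*) and 2.04 times (*Ccl4*) the CPM (counts scaled to library size) of the aCD3 library with its number. The *Ccl3* to *Ccl4* ratio of FPKM ran from 0.859 to 1.77. It was 1.57, 1.62 and 1.77 in LAFK, above every other library, of which FK replicate 3 was highest at 1.5.

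On the log2 scale of the edgeR fit, *Ccl3* was lower in FK than in aCD3 by 3.59-fold (-1.84 ± 0.341, SE) and *Ccl4* by 4.21-fold (-2.07 ± 0.277). In LAFK the differences from aCD3 were -1.04 ± 0.333 for *Ccl3* and -1.66 ± 0.273 for *Ccl4*. The *Ccl3* value lay at the edge of the 2-fold cut-off and was not past the thresholds of fold and adjusted p with DESeq2 (-1.0), without TMM factors (-0.83), or without aCD3 replicate 2 (-0.99), LAFK replicate 1 (-0.91) or LAFK replicate 2 (-1.10). Between LAFK and LA they were -2.19 ± 0.343 and -2.50 ± 0.28. With *L. acidophilus* alone the differences from aCD3 were 1.15 ± 0.332 and 0.85 ± 0.266, and with it on top of FK506 (LAFK against FK) they were 0.80 ± 0.335 and 0.42 ± 0.27. The *Ccl3* difference between LAFK and FK passed the cut-off without FK replicate 3 (1.32).

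*Ccl5* encodes a chemokine that T cells make late after activation. It was at 22.6, 18.3 and 22.2 FPKM in aCD3, 13.0, 10.7 and 14.3 in LA, 6.86, 5.27 and 4.99 in FK, and 26.2, 23.6 and 21.9 in LAFK. The order was FK below LA below aCD3, each without overlap, whereas LAFK and aCD3 overlapped. Each agent alone thus went with a lower level than anti-CD3 alone, by 0.81 on the log2 scale for LA (-0.81 ± 0.168) and 3.99-fold for FK (-2.0 ± 0.175). In LAFK the difference from aCD3 was -0.02 ± 0.166, and 0.18 without TMM factors. LAFK was above FK by 1.98 ± 0.175, with same-numbered libraries at CPM ratios of 3.75, 4.21 and 3.92.

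*Ccl1*, whose product binds CCR8, is made mainly by activated T cells. It was at 5.62, 6.60 and 9.66 FPKM in aCD3, 33.1, 21.1 and 12.5 in LA, 18.1, 11.8 and 15.8 in FK, and 5.03, 8.43 and 7.46 in LAFK. Every LA and FK library lay above every aCD3 and LAFK library. This is the reverse of the *Ccl5* pattern, since here the groups with 1 agent were high and the group with both was not. The fitted differences from aCD3 were 1.54 ± 0.333 in LA, 0.96 ± 0.33 in FK (1.06 and past the cut-off without TMM factors) and -0.27 ± 0.332 in LAFK. LAFK was below FK by 1.22 (-1.22 ± 0.333) and below LA by 1.80 (-1.80 ± 0.337). The difference from FK did not pass the cut-off without FK replicate 1 (-1.09), FK replicate 3 (-1.18), LAFK replicate 1 (-1.05) or LAFK replicate 3 (-1.26).

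*Xcl1* encodes the ligand of XCR1, a receptor of cross-presenting dendritic cells. It was at 0.144, 1.59 and 1.41 FPKM in aCD3, 2.90, 4.95 and 3.68 in LA, 2.70, 1.87 and 1.04 in FK, and 2.86, 5.05 and 4.67 in LAFK. Both groups with *L. acidophilus* lay above all aCD3 and FK libraries, and they overlapped each other. The fitted differences from aCD3 were 1.80 ± 0.6 in LA, 0.73 ± 0.599 in FK and 1.79 ± 0.599 in LAFK. The LAFK value did not pass the cut-off with only the 6 libraries compared (1.80), or without LAFK replicate 2 (1.64) or LAFK replicate 3 (1.72). The first aCD3 library was the lowest of the 12, and with it the same-numbered CPM ratio of LA to aCD3 was 17.1, against 2.82 and 2.59 for the other two.

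*Ccl22* encodes a ligand of CCR4, found on regulatory and Th2 cells. It was at 37.8, 124 and 75.9 FPKM in aCD3, 37.7, 76.5 and 50.7 in LA, 64.0, 65.1 and 59.8 in FK, and 126, 82.6 and 86.0 in LAFK. The aCD3 libraries spread over nearly the whole range and overlapped all 3 other groups. In FPKM every LAFK library lay above every LA and FK library. The fitted differences were 0.72 ± 0.365 from LA and 0.56 ± 0.364 from FK, and by CPM the second LAFK library was at 0.98 times the second LA library. Differences from aCD3 were -0.61 ± 0.365 in LA, -0.45 ± 0.364 in FK and 0.11 ± 0.363 in LAFK.

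*Ccl2*, whose product recruits CCR2-bearing monocytes, was hardly detected outside LAFK. It was at 0, 0 and 0 FPKM in aCD3, 0.334, 0.0814 and 0 in LA, 0.536, 0.136 and 0 in FK, and 6.42, 2.33 and 3.79 in LAFK, from 373, 98 and 169 counts. Every LAFK library lay above all others. Set against a floor of 3 counts per aCD3 library, LAFK was at least 62.3-fold higher, and it exceeded FK by 4.04 ± 1.06 and LA by 4.68 ± 1.11 on the log2 scale. LA had 20, 4 and 0 counts and FK 32, 6 and 0, so that replicate 1 held most of them and replicate 3 was at 0, as in aCD3. Neither passed the cut-off against aCD3 in the edgeR fit, but FK did with DESeq2, with the replicate block and without FK replicate 3. The difference of LAFK from FK did not pass with DESeq2 (4.15) or without FK replicate 2 (3.80), FK replicate 3 (3.49), LAFK replicate 1 (3.57) or LAFK replicate 3 (4.13).

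*Ccl6* and *Ccl9* encode CCR1 ligands typical of myeloid cells. *Ccl6* was at 0, 0.0243 and 0 FPKM in aCD3, 0.375, 0 and 0.0386 in LA, 6.35, 2.90 and 1.21 in FK, and 20.7, 10.4 and 10.2 in LAFK. It was therefore near 0 without FK506, higher in every FK library and higher again in every LAFK library. Only 3 counts fell in aCD3, all in replicate 2, and the count ratios to aCD3 were 319 for FK (exact 95% counting interval 109 to 1550) and 1160 for LAFK (396 to 5610). LA had a count ratio to aCD3 of 14.1 (4.51 to 70.8), from 40, 0 and 4 counts. LAFK exceeded FK by 1.91 ± 0.745, which did not pass the cut-off but did without LA replicate 1 (1.91) and with limma on log2(FPKM + 1) (1.82), and it exceeded LA by 6.37 ± 0.961.

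*Ccl9*, next to *Ccl6*, was at 0.473, 1.95 and 0.888 FPKM in aCD3, 0.957, 1.36 and 1.59 in LA, 2.27, 1.19 and 0.557 in FK, and 8.05, 4.00 and 4.28 in LAFK. The 3 other groups overlapped, and every LAFK library lay above them. The difference was 0.15 ± 0.545 in both LA and FK against aCD3 and 2.1 ± 0.558 in LAFK. LAFK exceeded FK and LA by 1.95 each, with SE 0.553 and 0.554. The difference from FK did not pass without FK replicate 2 (1.87), FK replicate 3 (1.58) or LAFK replicate 1 (1.52), and that from LA without LA replicate 1 (1.77), LA replicate 2 (1.99) or LAFK replicate 1 (1.52).

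*Cxcl10*, an interferon-induced ligand of CXCR3 on Th1 cells, was at 0.532, 0.353 and 0.440 FPKM in aCD3 and 1.90, 0.375 and 0.497 in LA. It was at 4.80, 2.2 and 1.47 FPKM in FK and 5.18, 6.24 and 6.91 in LAFK. Every LAFK library lay above every other, and every FK library above every aCD3 library. LA overlapped aCD3, and its first library also overlapped FK. The differences from aCD3 were 0.97 ± 0.575 in LA, 2.52 ± 0.58 in FK and 3.54 ± 0.597 in LAFK. LAFK exceeded FK by 1.02 ± 0.53, which did not pass the cut-off. This difference did pass without the libraries numbered 1 (1.72), an alternative added after seeing the data.

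The summed FPKM of the 12 monocyte, macrophage and neutrophil markers was highest in LAFK, without overlap, as were *Ccl2*, *Ccl6*, *Ccl9* and *Cxcl10*. Not every marker followed the sum. *Lyz2* was at 0.0195 ± 0.0172 FPKM in aCD3, 2.31 ± 2.82 in FK and 20.4 ± 8.98 in LAFK (SD, n = 3 each), whereas *Ly6c2*, most of the sum in aCD3, was at 8.26 ± 3.44, 1.65 ± 0.898 and 2.66 ± 2.63, and *S100a9* was seen in 2 LAFK libraries alone. Of the 10 that could be tested, 9 were called higher in LAFK than in aCD3 and 7 higher in LAFK than in FK, with none lower in either (13.8% and 3.84% of all genes were higher; edgeR, adjusted p under 0.05 and at least 2-fold). The first FK library had the highest marker sum of its group, 25.7 FPKM against 15.3 and 10.3, and also the highest *Ccl2*, *Ccl6*, *Ccl9* and *Cxcl10*. In LAFK the first library was highest for the markers, 96.7 against 63.8 and 64.5 FPKM, and for *Ccl2*, *Ccl6* and *Ccl9*, but lowest for *Cxcl10*. The B-cell markers were high in FK and LAFK alike, and the part of either cell type in these chemokine levels was not tested.

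**Figure D2:**
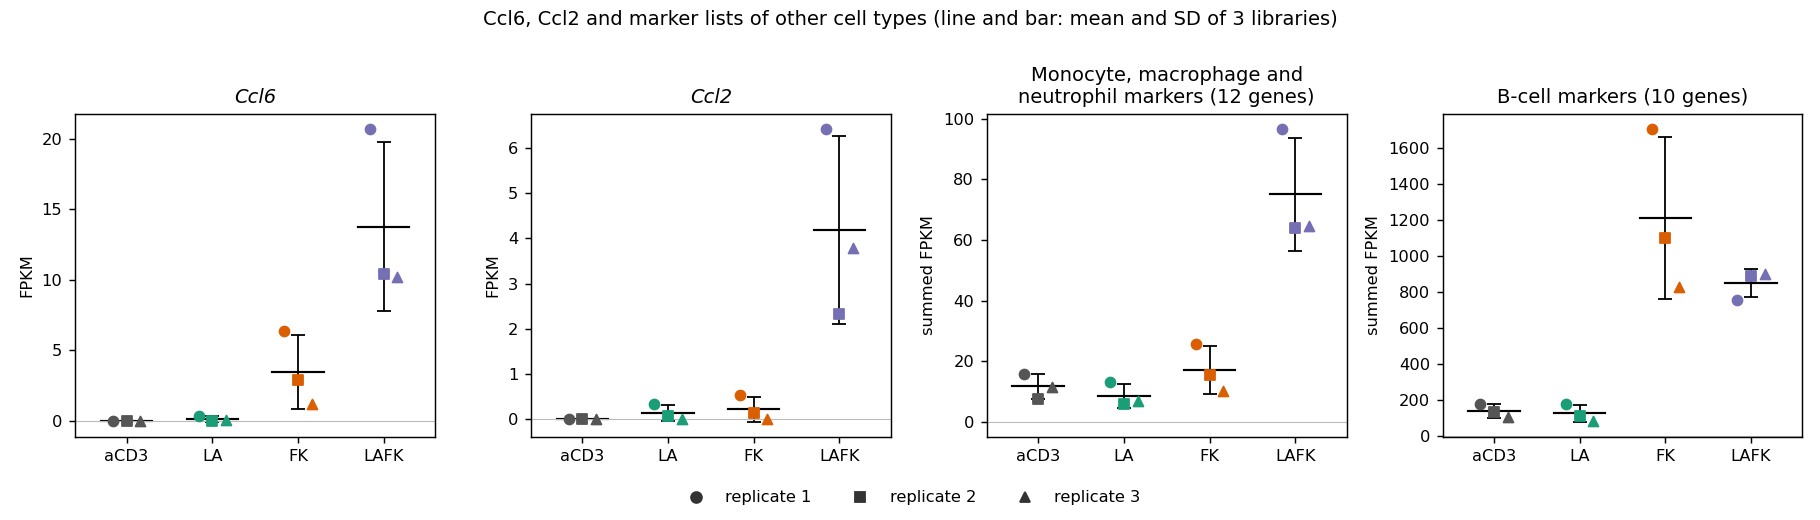
FPKM of *Ccl6* and *Ccl2*, and the summed FPKM of 12 monocyte, macrophage and neutrophil markers and of 10 B-cell markers. Points are libraries, lines means and bars SD of 3. The myeloid marker sum of 63.8 to 96.7 in LAFK lies above all other libraries, as do *Ccl6* and *Ccl2*, whereas the B-cell sum is high in FK and LAFK.

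Counted together, none of the 10 members passed the cut-off for LA against aCD3 (edgeR, adjusted p under 0.05 and at least 2-fold), a comparison in which 0.187% of all genes tested passed, 0.157% higher and 0.0297% lower. DESeq2 placed 2 past it, *Ccl1* at 1.53 and *Ccl3* at 1.14. With the replicate number as a block, the calls over all genes went from 44 to 69, with none among the members. In FPKM, 4 members lay wholly above aCD3 (11.8% of all genes did) and 1 wholly below (6.03%). For FK against aCD3, 5 members passed, 2 higher and 3 lower, where 10.6% of all genes did (6.44% higher, 4.12% lower), and 3 lay wholly above (20.1%) and 3 wholly below (12%). For LAFK against aCD3, 7 passed, 5 higher and 2 lower, where 24.6% of all genes did (13.8% higher, 10.8% lower), and 5 lay wholly above (31.2%) and 2 wholly below (18.8%).

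For LAFK against FK, 4 members passed, 3 higher and 1 lower, where 7.44% of all genes did (3.84% higher, 3.6% lower), and 7 lay wholly above (23.4%) and 1 wholly below (17.6%). Only *Ccl5* passed without LAFK replicate 1, and 2 members passed without FK replicate 2, FK replicate 3 or LAFK replicate 3. For LAFK against LA, 7 passed, 4 higher and 3 lower, where 16.6% did (9.93% higher, 6.64% lower), with 6 wholly above (29.1%) and 3 wholly below (21.1%). As the members were listed with these differences known, nothing is read from their shares. The median log2 difference over the members was 1.06 for LA, 0.44 for FK and 0.95 for LAFK against aCD3, beside 0, 0 and 0.02 over all genes tested; the 3 comparisons share the aCD3 libraries.

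**Figure D3:**
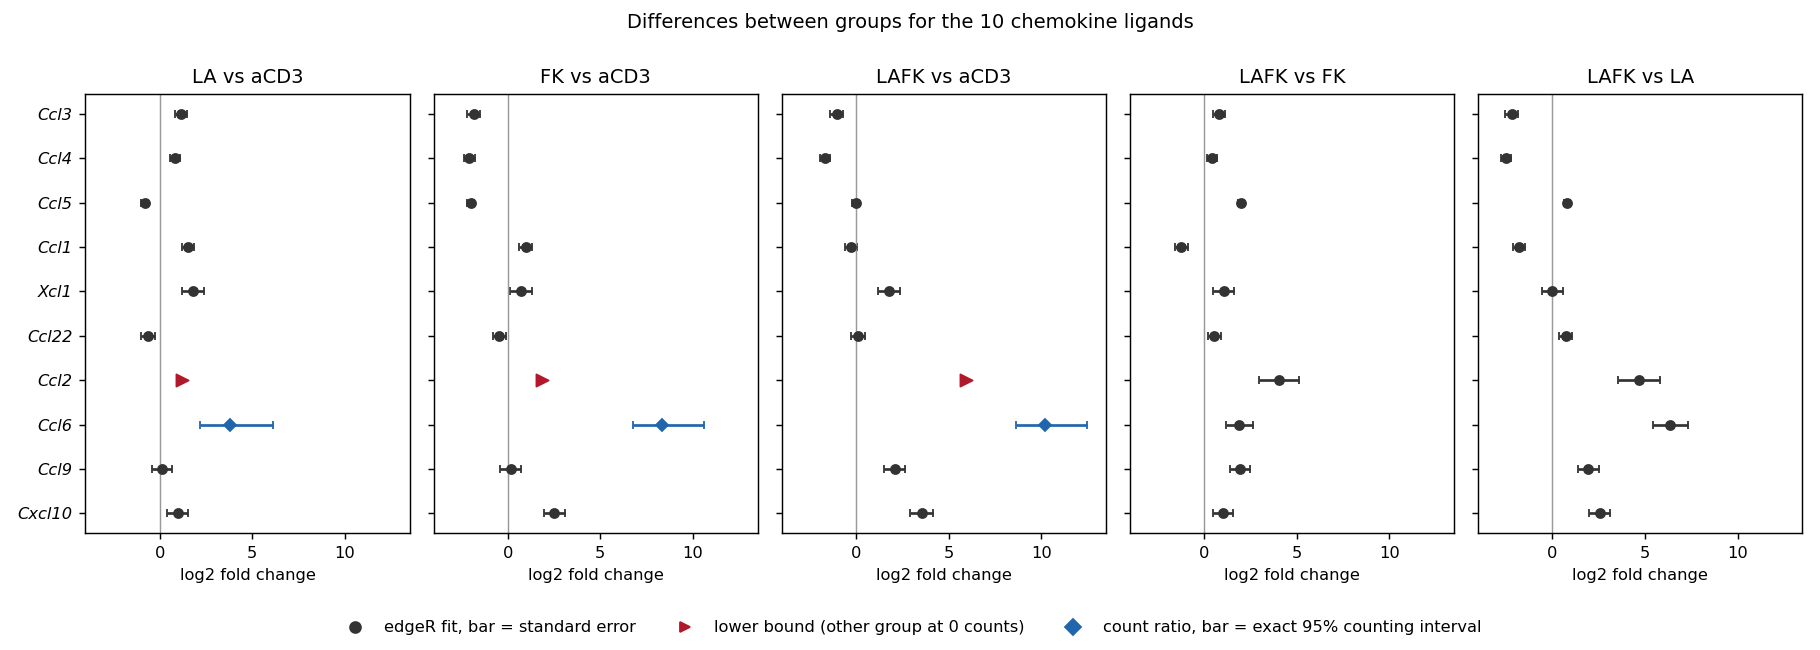
Log2 differences of the 10 chemokine ligands in the 5 comparisons. Circles are edgeR fits with their SE, triangles are lower bounds where aCD3 had 0 counts (*Ccl2*), and diamonds are count ratios with exact 95% counting intervals (*Ccl6*). *Ccl3* and *Ccl4* lie left of 0 wherever FK506 is compared with its absence, and *Ccl2*, *Ccl6*, *Ccl9* and *Cxcl10* lie right of 0 in LAFK.

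The difference that *L. acidophilus* made without FK506 (LA against aCD3) was set against the one it made with FK506 (LAFK against FK). The departure is the second minus the first, and 4.35% of all genes tested were called for it at an adjusted p under 0.05, 1.35% above the sum of the single differences and 3% below. Among the members, *Ccl5* stood at 2.79 ± 0.242 and *Ccl1* at -2.76 ± 0.471, the members farthest from 0 among those with counts in every group. For *Ccl5* every LA library was below every aCD3 library and every LAFK library above every FK library. For *Ccl1* the order was the other way around in both comparisons. Without the libraries numbered 1, an alternative chosen after seeing the data, *Ccl1* stood at -1.91, no longer past the threshold.

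Of the 10 members, 2 lay past the threshold, *Ccl1* and *Ccl5*, and nothing is read from that count. *Ccl3* and *Ccl4* had close differences in both settings, with departures of -0.34 ± 0.467 and -0.43 ± 0.378. *Cxcl10* had a departure of 0.05 ± 0.815, but its same-numbered CPM ratios were not alike in the 2 settings. For replicates 1, 2 and 3 they were 3.25, 0.97 and 1.13 for LA to aCD3, and 1.06, 2.67 and 4.2 for LAFK to FK. *Ccl9* stood at 1.80 ± 0.77 and *Ccl22* at 1.17 ± 0.516, both above the sum of the single differences. *Xcl1* was at -0.74 ± 0.822. For *Ccl2* and *Ccl6*, with 0 to 3 counts per library in aCD3, the fitted departures were -1.89 ± 2.5 and -1.66 ± 1.89, and nothing is read from them; limma on log2(FPKM + 1) gave 1.85 for *Ccl2*, of the opposite sign.

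**Figure D4:**
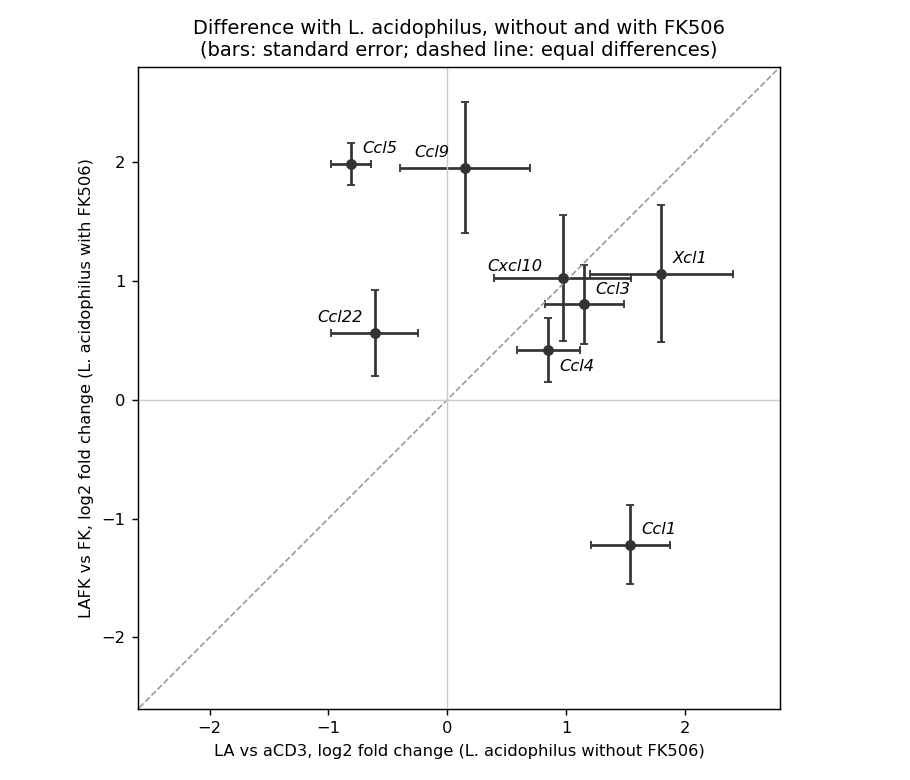
Log2 difference with *L. acidophilus* in the absence of FK506 (LA against aCD3, horizontal) and in its presence (LAFK against FK, vertical) for 8 of the 10 chemokine ligands, with SE bars. *Ccl2* and *Ccl6* are left out for their near-zero counts in aCD3. *Ccl5* (upper left) and *Ccl1* (lower right) lie in the quadrants of opposite sign, as does *Ccl22*, nearer to 0.

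Over the 12 libraries, *Ccl3* and *Ccl4* had a Pearson correlation of log2(CPM + 1) of 0.973 and *Ccl6* and *Cxcl10* of 0.956, while *Ccl6* and *Ccl9*, neighbors on the chromosome, had 0.77. These are descriptions over libraries that fall into 4 groups and share their depth. Among 13357 genes with a mean of at least 1 CPM, the gene whose pattern was most like *Ccl6* was *Cd93* (0.996), and most like *Cxcl10* was *Ttn* (0.99). For *Ccl9* it was *Atp6v1d* (0.979), for *Ccl5* *Plxnd1* (0.974), for *Ccl4* *Gyg* (0.949) and for *Ccl3* *Csrnp2* (0.942). For *Ccl22* it was *Mov10* (0.928), and for *Ccl1* and *Xcl1* it was *Neto2* and *Zranb1* (0.903 each). *Ccl2*, at a mean of 0.983 CPM, was left out.

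Of 29 other chemokine ligands, 21 could be tested. None was called for LA against aCD3 by edgeR, DESeq2 or limma on log2(FPKM + 1), with 1 at an unadjusted p under 0.05. In LAFK against aCD3, 10 were called higher and none lower, beside 13.8% and 10.8% of all genes tested. In LAFK against FK, 5 were called higher and none lower, beside 3.84% and 3.6%. Of the neutrophil-attracting CXCR2 ligands, *Cxcl1*, *Cxcl2* and *Cxcl3* were called in LAFK against aCD3, and *Cxcl1* and *Cxcl2* in LAFK against FK. The *Cxcl2* call against FK (4.11 ± 1.22) was lost with DESeq2 (4.29) and without FK replicate 2 (3.59), FK replicate 3 (3.57), LAFK replicate 1 (3.42), LAFK replicate 2 (4.40) or LAFK replicate 3 (4.34). *Cxcl1* was higher in LAFK than in aCD3 by 4.11 ± 0.531 (edgeR adjusted p = 9.76e-05), *Cxcl2* had a count ratio of 166 (45.7 to 1380; adjusted p = 0.00396), and *Cxcl3*, at 0 in aCD3, was at least 35.7-fold higher (adjusted p = 0.00396). *Ccl7*, a CCR2 ligand like *Ccl2*, had a count ratio of 165 (45.3 to 1370; adjusted p = 0.000941) and exceeded FK by 4.19 ± 0.987 (adjusted p = 0.0123; 3.54 and not called without LAFK replicate 1). *Pf4*, a platelet and megakaryocyte chemokine, was at least 13.8-fold higher (adjusted p = 0.00712).

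The membrane-bound ligands *Cxcl16* and *Cx3cl1* had the highest mean levels among these in LAFK. *Cx3cl1*, the CX3CR1 ligand, was at 0.136, 0.043 and 0.119 FPKM in aCD3 and 16.3, 4.60 and 4.60 in LAFK, a difference of 6.19 ± 1.06 (edgeR adjusted p = 0.000638), which DESeq2 did not call (6.25). *Cxcl16*, the CXCR6 ligand, was at 0.669, 0.603 and 0.301 FPKM in aCD3, 2.22, 2.40 and 1.09 in FK, and 11.1, 8.38 and 9.61 in LAFK. It was higher in LAFK than in aCD3 by 4.05 ± 0.489 (adjusted p = 6.32e-05) and than in FK by 2.27 ± 0.445 (adjusted p = 0.00488). *Ccl20*, the CCR6 ligand, was higher in FK by 3.38 ± 0.804 (adjusted p = 0.0127) and in LAFK by 2.69 ± 0.795 (adjusted p = 0.0167). These *Ccl20* calls were lost without aCD3 replicate 2 (3.01 and 2.32), and the LAFK call also without LAFK replicate 1 (2.14). *Ccl17*, a CCR4 ligand like *Ccl22*, differed by 1.15 ± 0.779 (adjusted p = 0.253) and *Ccl25*, which guides cells to the gut, by -0.17 ± 0.229 (adjusted p = 0.588) between LAFK and aCD3. The same myeloid marker sums stand beside the ligands that were higher in LAFK, and their part was not tested.

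Of 23 chemokine receptors, 21 could be tested. None was called for LA against aCD3 by edgeR, DESeq2 or limma, with 5 at an unadjusted p under 0.05. In FK against aCD3, 7 were called higher and 1 lower (6.44% and 4.12% of all genes tested), and in LAFK against aCD3, 12 higher and 1 lower (13.8% and 10.8%). In LAFK against FK, 2 were called higher, *Cxcr3* and *Ccrl2*, and none lower (3.84% and 3.6%). *Cxcr3*, the receptor for *Cxcl10* and a Th1 marker, was at 4.95, 6.37 and 7.10 FPKM in aCD3, 11, 9.11 and 9.55 in LA, 16.7, 14.6 and 12.9 in FK, and 26.5, 35.6 and 33.5 in LAFK. The 4 groups did not overlap, and LAFK exceeded aCD3 by 2.17 ± 0.153 (edgeR adjusted p = 5.9e-06) and FK by 1.02 ± 0.148 (adjusted p = 0.00103). The latter fell under the 2-fold cut-off without FK replicate 3 (0.94), LAFK replicate 2 (0.94) or LAFK replicate 3 (1.00).

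The receptors of the T-cell chemokines did not all go the same way. *Ccr4*, the receptor for *Ccl22* and the most abundant of the named receptors in aCD3, was at 91.3, 141 and 152 FPKM in aCD3 and 49.1, 63.9 and 64.1 in LAFK. It was lower in LAFK than in aCD3 by 1.33 (-1.33 ± 0.177, edgeR adjusted p = 0.000118). *Ccr8*, the receptor for *Ccl1*, was at 33.1, 56.8 and 54.9 FPKM in aCD3 and 26.6, 31.0 and 32.6 in LAFK, a difference of -0.89 ± 0.224 (adjusted p = 0.00724) that lay under the 2-fold cut-off. It was called without aCD3 replicate 1 (-1.09). *Ccr1*, a receptor for *Ccl3*, *Ccl5*, *Ccl6* and *Ccl9*, was higher in LAFK than in aCD3 by 2.87 ± 0.859 (adjusted p = 0.0177; not called without aCD3 replicate 2, at 2.57, or aCD3 replicate 3, at 2.51). *Ccr2*, the receptor for *Ccl2*, was higher by 2.38 ± 0.455 (adjusted p = 0.0013). Monocytes carry *Ccr1* and *Ccr2*, and the myeloid marker sum, 7.64 to 15.9 FPKM in aCD3 and 63.8 to 96.7 in LAFK, stands beside them; its part was not tested. *Xcr1* stayed at or under 0.0868 FPKM in every library.

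*Ccr7*, which guides T cells and dendritic cells to lymph nodes, differed from aCD3 by -0.10 ± 0.367 in FK (edgeR adjusted p = 0.894) and 0.92 ± 0.37 in LAFK (adjusted p = 0.0629). The LAFK difference was called without TMM factors (1.13), with limma on log2(FPKM + 1) (1.28) or log2(FPKM + 0.1) (1.29) and without aCD3 replicate 2 (1.41).

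Other receptors were higher with FK506. *Ccr6*, carried by B cells and Th17 cells, was at 0.429, 0.0615 and 0.0715 FPKM in aCD3, 4.65, 6.89 and 2.26 in FK and 14.9, 12.9 and 12.1 in LAFK, with differences of 4.19 ± 0.75 (edgeR adjusted p = 0.00294) and 5.81 ± 0.793 (adjusted p = 0.000139). *Cxcr4* was higher by 1.56 ± 0.203 in FK (adjusted p = 0.000524) and 1.81 ± 0.204 in LAFK (adjusted p = 4.32e-05). *Cxcr6*, the *Cxcl16* receptor, was higher by 3.92 ± 0.691 in LAFK (adjusted p = 0.000767). *Cxcr5*, which leads B cells and follicular helper T cells to follicles, was higher by 1.35 ± 0.241 in FK (adjusted p = 0.00289) and 1.01 ± 0.239 in LAFK (adjusted p = 0.00484). The LAFK value of *Cxcr5* fell under the cut-off without aCD3 replicate 3 (0.81) or LAFK replicate 2 (0.98). The B-cell marker sums, high in FK and LAFK, stand beside *Ccr6* and *Cxcr5*, and their part was not tested.

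*Ccrl2*, an atypical chemokine receptor that does not signal, was the single receptor called for the departure. It was at 1.95, 1.90 and 1.88 FPKM in aCD3, 1.17, 1.14 and 1.06 in LA, 1.16, 0.645 and 0.685 in FK, and 4.06, 2.90 and 2.91 in LAFK. The LAFK libraries lay above those of aCD3 (0.58 ± 0.248, adjusted p = 0.08 by edgeR, not called), and both single-agent groups lay below. The departure was 2.75 ± 0.36 (edgeR adjusted p = 0.00463), and LAFK exceeded FK by 1.87 ± 0.258 (adjusted p = 0.00079). No other ligand was called for the departure by edgeR or DESeq2, with 3 at an unadjusted p under 0.05, whereas limma on log2(FPKM + 1) called 4.

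**Figure D5:**
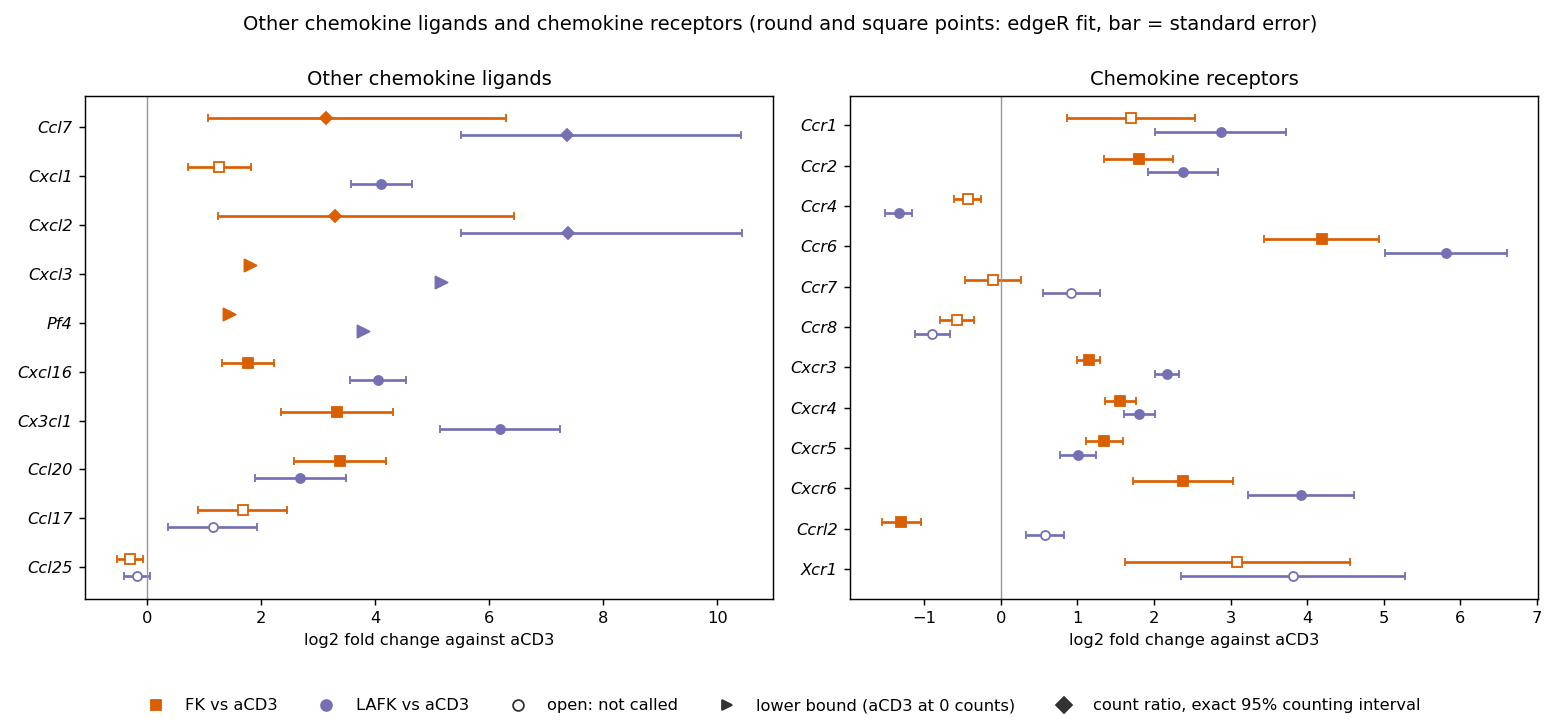
Log2 differences from aCD3 for the named other chemokine ligands (left) and receptors (right), with FK as squares and LAFK as circles and SE bars. Open squares and circles were not called. Triangles are lower bounds and diamonds are count ratios with exact 95% counting intervals, and both are drawn filled whether called or not. Most points lie right of 0, and *Ccr4* (LAFK) and *Ccrl2* (FK) are the called points left of it.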

How the data were processed

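RNA-seq of polyA RNA was made from 12 libraries, 3 for each of 4 groups taken from the sample labels. Per the submitters' processing notes, bcl2fastq 2.20.0, Trimmomatic, HISAT2 2.1.0 and StringTie 2.1.3b were used, with mm10/GRCm38. The authors deposited 1 table of 45777 genes with whole-number read counts per gene, not normalized. The FPKM values in it were deposited by the authors as fragments scaled to transcript length and library depth. The study's methods name quantile normalization, which the FPKM columns, with their differing totals, do not show. The 12 columns of TPM values deposited by the authors were not used.

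The members and the lists of ligands, receptors and markers were chosen with earlier results of these data known. Genes with no count above 0 in 3 or more libraries were left out, and the counts of the other 23585 were fitted with edgeR 4.0.16 (quasi-likelihood, TMM, R 4.3.3), all 12 libraries in 1 fit and 1 mean per group. A call needed an adjusted p (Benjamini-Hochberg, over all genes tested) under 0.05 and a 2-fold difference, and for the departure (LAFK - LA - FK + aCD3) without a fold cut-off. SE is the log2 difference divided by the square root of F. For members the fit is printed without p. Groups at 0 counts were set to a floor of 3 counts per library, and those with 1 to 3 counts in a library were given as count ratios with exact 95% counting intervals, which cover counting error only. Named other genes reach a mean of 1 FPKM in a group or are a textbook receptor of a member; the rest are counted, and 1 result that this rule would name is not reported here. The nearest pattern is the highest Pearson correlation of log2(CPM + 1). Alternatives were DESeq2 1.42.0, no TMM factors, other filters, a replicate block, only the 6 libraries compared, limma 3.58.1 on log2(FPKM + 1) or log2(FPKM + 0.1), each library left out, and, added after seeing the data, no libraries numbered 1. The fits were tested on simulated data.

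Same-numbered libraries deviated together in LA and aCD3 (correlations 0.523, 0.357 and 0.289) and in LAFK and LA (0.223, 0.192 and 0.166). They did not in every pair of the other comparisons. The highest correlations with other-numbered libraries were -0.276, 0.164 and 0.117 for LA and aCD3, and -0.154, 0.191 and 0.07 for LAFK and LA. Replicate 2 of LAFK and LA was thus not set apart by its number. The labels do not say what a number stands for, so the pairing rests on this check. No 2 libraries agreed within counting noise (lowest chi-square per degree of freedom 4.61).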

Additional observations from a re-analysis of the deposited data

Results flagged for a closer look

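For *Ccl1*, *Ccl5* and *Ccrl2* the difference that went with *L. acidophilus* was not alike without and with FK506. *Ccl1* (departure -2.76 on the log2 scale) was higher with *L. acidophilus* in every library without FK506 and lower in every library with it; *Ccl5* (departure 2.79) was lower in every library without FK506 and higher in every library with it. Both are members listed for their values, so the difference is a description and no p is given. *Ccrl2*, which is not a member, had a departure of 2.75 (edgeR adjusted p = 0.00463), lower in every LA than in every aCD3 library and higher in every LAFK than in every FK library. Groups of 3 libraries were too small to look for single outlying samples.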

How the results depend on the processing

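Of the members' log2 differences under the alternatives, 1171 of 1250 moved by less than the replicate spread, none of the 10 genes reversed a called direction, and 79 moved by more. The *Ccl2* departure, not called at -1.89, turned to 1.85 with limma on log2(FPKM + 1).

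Genes called for LA against aCD3, 44 at first, were 438 with DESeq2, 84 with filterByExpr, 83 with no filter, 0 with only the 6 libraries compared (edgeR, 2676 at an unadjusted p under 0.05), 11 with limma on log2(FPKM + 1) and 3 without the libraries numbered 1. Leaving out 1 library gave 1 to 169 (1 without LA replicate 1 or 2, 5 without aCD3 replicate 2, 169 without aCD3 replicate 3). DESeq2 placed 2 members past the cut-off.

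With limma on log2(FPKM + 1), genes called were 967 for FK against aCD3, 2318 for LAFK against aCD3, 647 for LAFK against FK, 1618 for LAFK against LA and 1675 for the departure. Other ligands called were 1 for FK against aCD3 (2 on log2(FPKM + 0.1)) and 4 for the departure (2 on log2(FPKM + 0.1)), where *Cxcl3* reversed to 1.18 from -2.37, and receptors called for LAFK against FK were 4, from 2 with edgeR. DESeq2 called 3 other ligands for LAFK against FK, and 2380 genes and 2 receptors for the departure. Only the 6 libraries compared gave 5 receptors for LAFK against FK. Without the libraries numbered 1, receptors called for LAFK against FK were 6, and the departure had 474 genes and 1 member.

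With the replicate block, LA against aCD3 had 69 genes called, LAFK against FK 5 receptors, and the departure 1578 genes and 2 receptors. Among the members it put *Ccl2* past the cut-off for FK against aCD3 and *Ccl6* for LAFK against FK (2.11) and changed no other member's call.

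Leaving out each library in turn, members past the cut-off were 0 for LA, 5 to 6 for FK and 5 to 7 for LAFK against aCD3, 1 to 5 for LAFK against FK, 6 to 7 for LAFK against LA and 2 for the departure. Other ligands called were 1 to 5 for FK against aCD3 (1 without aCD3 replicate 2, FK replicate 1 or FK replicate 2), 8 to 11 for LAFK against aCD3, 2 to 7 for LAFK against FK, 4 to 10 for LAFK against LA (4 without LA replicate 2, LA replicate 3 or LAFK replicate 1) and 0 to 1 for the departure. Receptors called were 6 to 10 for FK and 10 to 15 for LAFK against aCD3, 1 to 4 for LAFK against FK, 8 to 15 for LAFK against LA and 1 to 2 for the departure. Genes called were 1666 to 2558, 4776 to 5827, 979 to 1913 (979 without FK replicate 3), 3226 to 4052 and 332 to 1464 (332 without LA replicate 2). The causes were not tested.

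Without TMM factors the median of all genes shifted by 0.2 for LAFK against aCD3 and 0.13 for LAFK against LA, and calls for LAFK against aCD3 went from 3256 higher and 2541 lower to 3967 and 1827. Among the members, *Ccl5* in LAFK against aCD3 and *Xcl1* in LAFK against LA, both near 0, changed sign (0.18 and 0.13). Depth limits *Ccl2* and *Ccl6* outside LAFK and FK, where they had 0 to 40 counts per library.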
